A study of Mus musculus with 6 samples.

Results

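The genes described here encode 8 proteins that bundle, cross-link or coat actin filaments: the bundling protein fascin (Fscn1), the 4 tropomyosins (Tpm1, Tpm2, Tpm3 and Tpm4), the non-muscle alpha-actinins Actn1 and Actn4, and filamin A (Flna). They are 8 of 18193 genes measured, and 23 of 34945 probe sets that name a single gene. Their levels were compared between an Itgav-low Tie2-positive population, called Tie2-positive here, and an Itgav-negative Tie2-negative population, called Tie2-negative here, with 3 arrays each. Both were sorted from fore and hind limb skeletal tissue of mice at postnatal day 3 as cells without CD45, the pan-leukocyte antigen, and without Ter119, an erythroid antigen. Itgav is integrin alpha V, and Tie2, encoded by Tek, is the angiopoietin receptor of endothelial cells. According to the labels the mice were wild type, though the protocol mentions GFP-labelled animals; strain is not named, no treatment is listed, and the labels describe each sample as the limbs of a pooled litter. Whether litters differed between the 3 samples of a population is not stated, so the p-values may measure technical spread alone.

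Fascin packs parallel filaments into the stiff bundles of filopodia. Tropomyosins lie as coiled-coil dimers along the filament and govern which other proteins reach it, alpha-actinins tie antiparallel filaments together in stress fibres and at adhesions, and filamin A joins crossing filaments into a flexible network that is linked to integrin tails. In endothelium these proteins serve sprouting, junction tension and resistance to flow. Blood cells use them too: tropomyosin is part of the short filaments of the red-cell membrane skeleton, and platelets and neutrophils contain alpha-actinin and filamin.

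The 8 genes were chosen by what they encode, with results of this same comparison in view, since Fscn1 was already known to be among its most strongly separated genes. The differences between populations given for the 8 genes are therefore a description and carry no test. A gene is represented by its brightest probe set, judged by the mean of all 6 arrays. All values are log2 array values after quantile normalization, all differences are Tie2-positive minus Tie2-negative on that scale, and SD is over 3 arrays. A probe set's level cannot be set against that of another gene, and the values carry no detection calls, so whether a low value lay above background was not analysed. In sorted bulk samples, fewer cells of a type and less RNA per cell cannot be told apart. The median difference over all genes was -0.11.

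The arrays bore out the Tie2 gate but were not pure in other respects. Tek, a gate gene and thus no finding, had 12.06, 10.86 and 9.80 in Tie2-positive replicates 1, 2 and 3, against 4.81, 4.79 and 4.90 in Tie2-negative replicates 1, 2 and 3. The median of 13 endothelial markers, Tek included, was 9.19 to 11.63 in Tie2-positive arrays and 5.58 to 6.16 in Tie2-negative arrays. Of 9 measured erythroid markers 5 fell and of 10 B-lineage markers 6 fell (limma, adjusted p under 0.05), beside 2.53% of all genes. Their list medians were 5.62 to 8.24 and 5.45 to 6.03 in Tie2-positive arrays, against 10.81 to 12.12 and 7.76 to 10.02 in Tie2-negative arrays. The median of 11 neutrophil and monocyte markers was 5.98, 11.74 and 13.34 in Tie2-positive replicates 1, 2 and 3, against 6.14, 7.58 and 8.33 in Tie2-negative replicates 1, 2 and 3. Within the Tie2-positive population, replicate 1 was thus high in endothelial and low in neutrophil markers. Of 12 mesenchyme, bone and cartilage markers 0 were called: Pdgfra and Prrx1, for example, overlapped between the populations, whereas the collagen gene Col1a2 had 8.99 to 10.18 in Tie2-positive and 8.30 to 8.83 in Tie2-negative arrays, and the bone gene Ibsp had 7.27 in Tie2-positive replicate 1 and 3.23 to 3.86 in all other arrays. The series title speaks of stroma.

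**Figure D1:**
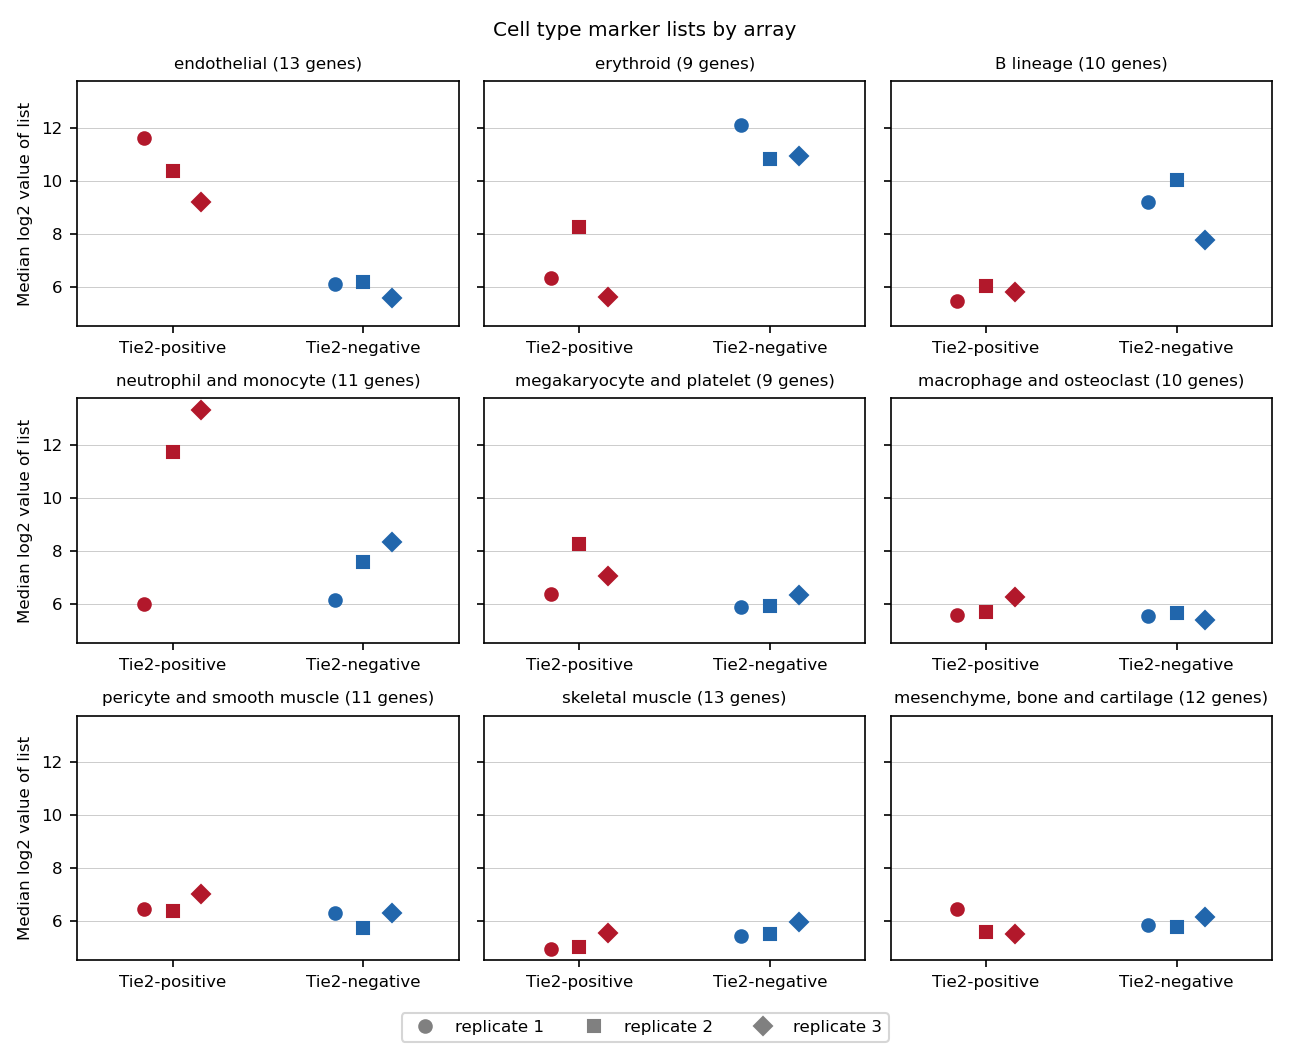
Median log2 value of each cell type marker list (vertical axis) on the 3 Tie2-positive and 3 Tie2-negative arrays, with a symbol per replicate and the number of measured genes in each title. Endothelial medians are 9.19 to 11.63 in Tie2-positive arrays and 5.58 to 6.16 in Tie2-negative arrays, and the neutrophil median is 5.98 in Tie2-positive replicate 1 against 11.74 and 13.34 in replicates 2 and 3.

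Fscn1, fascin, showed the widest separation of the 8 genes. Its values were 13.15, 11.79 and 11.23 in Tie2-positive replicates 1, 2 and 3, against 3.71, 5.10 and 7.63 in Tie2-negative replicates 1, 2 and 3. All Tie2-positive arrays lay above all Tie2-negative arrays, with 3.60 between the closest pair, and the Tie2-negative arrays were themselves far apart, with replicate 3 the highest. The means were 12.06 ± 0.99 (SD) in Tie2-positive and 5.48 ± 1.99 (SD) in Tie2-negative arrays, a difference of 6.58. This was the 6th largest positive difference of 18193 genes, each read by its brightest probe set. The rank depends on that rule, because this probe set was the brightest of Fscn1 only through the Tie2-positive arrays. In Tie2-negative arrays another Fscn1 probe set was brighter, with a mean of 7.51, and it separated the populations far less, as given below. With each array left out in turn the difference ran from 5.69 to 7.65.

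Among the tropomyosins, which share their fold but come from 4 genes, only Tpm4 stood well apart between the populations. Tpm4, a cytoskeletal tropomyosin that is abundant in platelets, had 12.85, 11.78 and 11.19 in Tie2-positive replicates 1, 2 and 3, against 8.64, 9.66 and 8.41 in Tie2-negative replicates 1, 2 and 3. The populations did not overlap, and the means of 11.94 ± 0.84 (SD) and 8.90 ± 0.67 (SD) differed by 3.04, or 8.21-fold on the linear scale of the array. Tpm3, whose products include the tropomyosin of slow muscle and cytoskeletal forms, had 12.45, 12.62 and 12.65 in Tie2-positive replicates, against 11.46, 12.12 and 11.76 in Tie2-negative replicates. These groups did not overlap either, but the closest arrays were 0.34 apart and the means differed by 0.79. Tpm1, known for striated muscle, smooth muscle and stress fibre forms, had 9.48, 8.95 and 8.44 in Tie2-positive replicates 1, 2 and 3, against 8.93, 8.91 and 8.94 in Tie2-negative replicates. The Tie2-positive arrays lay on both sides of the tight Tie2-negative group, so that the mean difference of 0.03 is far within the Tie2-positive SD of 0.52, and its sign turned when single arrays were left out (-0.23 to 0.29). Tpm2, a tropomyosin of muscle and fibroblasts, had 7.53, 8.19 and 8.29 in Tie2-positive replicates 1, 2 and 3, against 7.06, 8.01 and 7.76 in Tie2-negative replicates 1, 2 and 3. The groups overlapped, and in both of them replicate 1 was the lowest. Its means of 8.0 ± 0.42 (SD) and 7.61 ± 0.50 (SD) differed by 0.39. Leaving out single arrays gave 0.12, without Tie2-negative replicate 1, to 0.63, without Tie2-positive replicate 1. With Tie2-positive replicate 1 alone against the 3 Tie2-negative arrays, a setting chosen after seeing the data, the difference was -0.08.

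The alpha-actinins split in the same way. Actn1 had 10.92, 9.82 and 10.51 in Tie2-positive replicates 1, 2 and 3, against 6.05, 6.88 and 7.04 in Tie2-negative replicates 1, 2 and 3. There was no overlap, 2.78 lay between the closest arrays, and the means of 10.42 ± 0.56 (SD) and 6.66 ± 0.53 (SD) differed by 3.76, or 13.6-fold on the linear scale. Actn4, which like Actn1 is made in most non-muscle cells, had 11.71, 11.22 and 11.01 in Tie2-positive replicates 1, 2 and 3, against 10.83, 11.01 and 10.88 in Tie2-negative replicates. Tie2-positive replicate 3 and Tie2-negative replicate 2 were level at 11.01, and the means of 11.31 ± 0.36 (SD) and 10.91 ± 0.09 (SD) differed by 0.40. The difference was 0.21 without Tie2-positive replicate 1, and 0.21 to 0.56 over all single arrays left out.

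Flna, the filamin of non-muscle cells, was higher in every Tie2-positive array. It had 10.10, 9.52 and 9.92 in Tie2-positive replicates 1, 2 and 3, against 7.43, 7.91 and 8.13 in Tie2-negative replicates 1, 2 and 3. The means of 9.85 ± 0.30 (SD) and 7.82 ± 0.36 (SD) differed by 2.02, or 4.07-fold on the linear scale, with 1.39 between the closest arrays. Leaving out single arrays gave 1.83 to 2.19.

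**Figure D2:**
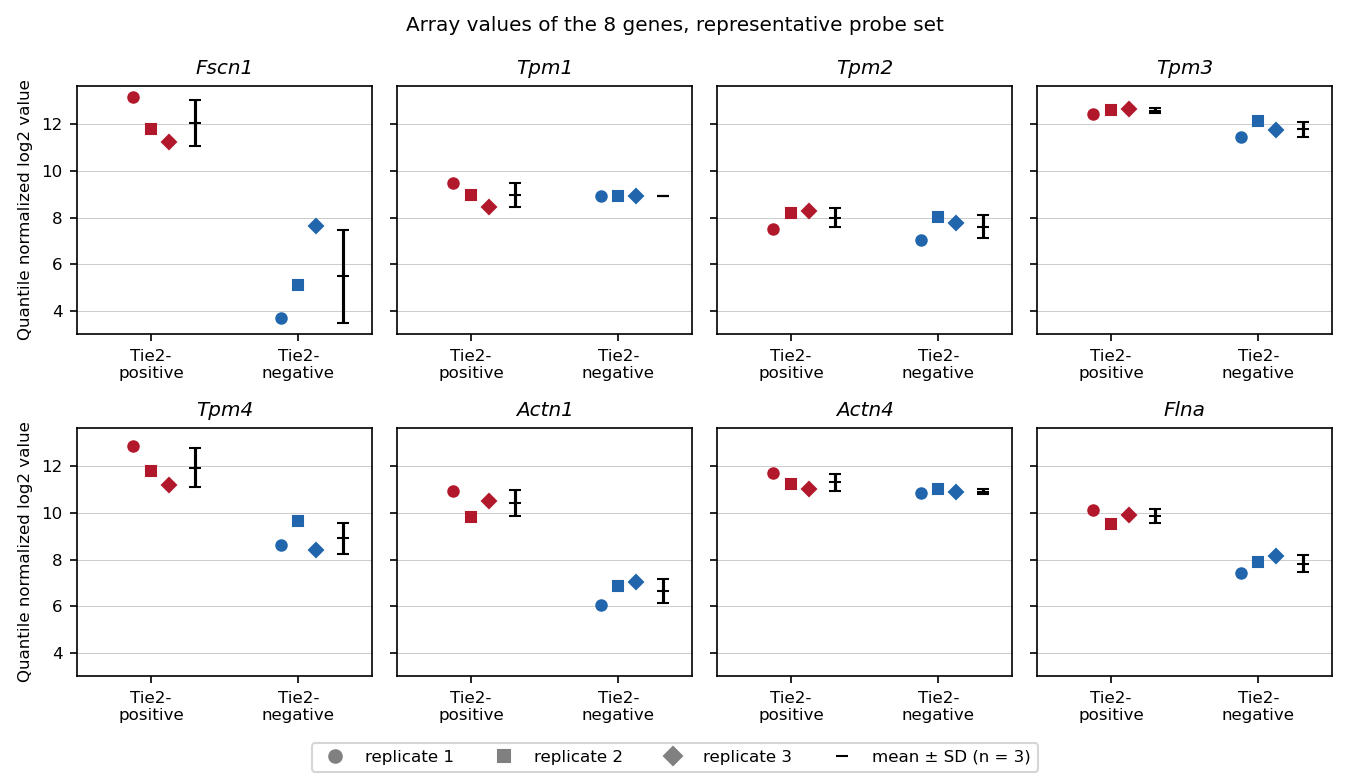
Quantile normalized log2 value (vertical axis) of the representative probe set of each gene on the 3 Tie2-positive and 3 Tie2-negative arrays, with a symbol per replicate and the mean ± SD beside each group. Fscn1, Tpm4, Actn1 and Flna lie apart between the populations by 1.39 or more, while Tpm1, Tpm2 and Actn4 overlap.

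In 5 of the 8 genes all Tie2-positive arrays lay above all Tie2-negative arrays, a pattern shown by 15.2% of all genes, and in 0 all lay below, a pattern shown by 23.9%. In the limma fit over all 18193 genes, 4 of the 8 (Fscn1, Tpm4, Actn1 and Flna) were called higher and 0 lower at an adjusted p under 0.05, where 7.39% of all genes were called, 4.86% higher and 2.53% lower. Nothing is read from these shares, or from the calls of the 8 genes by setting that follow, because the genes were picked with this contrast known. Tpm3 was also called with the values as deposited, with arrays centred on their medians, with genes below the 40th percentile removed, with array weights and without Tie2-positive replicate 1. Without Tie2-positive replicate 2 only Actn1 and Flna were called, without Tie2-negative replicate 3 Fscn1, Actn1 and Flna, and without Tie2-negative replicate 1 or 2 limma called 0 of all genes (4012 and 3980 at an unadjusted p under 0.05). All 8 differences were above 0 under quantile normalization, as deposited (0.18 to 6.59) and with arrays centred on their medians (0.22 to 6.63).

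The start regions of the genes that stood apart are shown because these genes stood apart in the same direction. The sequences are the 250 bases before the annotated RefSeq start in GRCm38.p6, read 5′ to 3′ on the gene's strand: Fscn1 at chr5:142960105-142960354 (plus strand), Tpm4 at chr8:72135038-72135287 (plus strand), Actn1 at chr12:80260364-80260613 (minus strand) and Flna at chrX:74246535-74246784 (minus strand). Capitals mark matches to the searched motifs on either strand, which were the TATA box TATAAA, the TEAD motif CATTCC, the GC box GGGCGG, the GATA motif GATAA and the CArG box of serum response factor. A CArG box can hold a TATAAA within it, and the other motifs do not contain each other.
Fscn1: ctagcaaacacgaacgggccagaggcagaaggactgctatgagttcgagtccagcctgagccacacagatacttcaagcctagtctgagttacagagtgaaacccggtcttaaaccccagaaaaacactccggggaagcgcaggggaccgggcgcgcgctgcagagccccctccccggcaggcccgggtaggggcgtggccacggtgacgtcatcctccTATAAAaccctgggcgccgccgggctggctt
Tpm4: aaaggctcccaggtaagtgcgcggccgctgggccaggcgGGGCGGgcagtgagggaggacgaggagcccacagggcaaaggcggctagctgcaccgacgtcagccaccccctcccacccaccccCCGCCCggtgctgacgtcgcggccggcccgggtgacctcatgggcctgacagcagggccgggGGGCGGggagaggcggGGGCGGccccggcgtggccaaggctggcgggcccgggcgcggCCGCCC
Actn1: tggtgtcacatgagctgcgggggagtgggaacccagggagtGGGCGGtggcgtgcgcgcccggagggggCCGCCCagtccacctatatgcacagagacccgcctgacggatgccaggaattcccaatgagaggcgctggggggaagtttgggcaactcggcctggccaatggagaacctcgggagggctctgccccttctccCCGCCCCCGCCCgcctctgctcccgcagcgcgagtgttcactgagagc
Flna: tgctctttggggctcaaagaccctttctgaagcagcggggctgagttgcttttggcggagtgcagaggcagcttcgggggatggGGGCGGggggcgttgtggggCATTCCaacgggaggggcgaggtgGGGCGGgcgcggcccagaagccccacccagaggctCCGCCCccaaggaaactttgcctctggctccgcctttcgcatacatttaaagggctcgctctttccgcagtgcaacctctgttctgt

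Fscn1 was the only one of the 9 start regions of the 8 genes with TATAAA, whose first base lies at position -31 from the start site, and 12.4% of 32851 mouse start regions hold this motif. Tpm4 had 5 matches to GGGCGG, Actn1 had 4, Flna and Actn4 had 3 each, Tpm2 had 2, Tpm1 had 1, Tpm3 had 1 in its pair of start regions and Fscn1 had none, while 32.7% of all start regions hold at least 1. CATTCC was found in Flna, Tpm1 and Actn4 (12.6% of all), and GATAA in both start regions of Tpm3 (22.6% of all). No CArG box lay in any of the 9 windows (1.47% of all), which says only that these letters are not there. The G and C content of the printed windows was 62.4% for Fscn1, 78.8% for Tpm4, 68.4% for Actn1 and 63.6% for Flna, against a median of 52.4% over all start regions. The windows of Tpm1 (65.2%), Tpm2 (69.6%) and Actn4 (67.6%), genes with overlapping populations, lay within the range of the printed windows. Those of Tpm3 (48.8% and 53.6%) lay below it.

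The size of the separation depended on the probe set. Fscn1 has 4 probe sets, all annotated to the same RefSeq transcript. The one used had a mean level of 8.77, and the next, with a mean of 7.80, had 8.53, 7.97 and 7.81 in Tie2-positive replicates against 7.51, 7.62 and 7.40 in Tie2-negative replicates. That probe set separated the populations as well, but by a mean of 0.59. The other Fscn1 probe sets, with means of 5.78 and 5.46, differed by -0.16 and -0.02. Averaged over the 4 probe sets, Fscn1 differed by 1.75. Actn1 behaved alike: its other probe sets, with mean levels of 5.83 and 5.32, differed by 0.18 and 0.47 with overlapping populations, and the mean of all 3 gave 1.47. For Tpm3 the probe sets with mean levels of 12.18, 10.56 and 8.20 differed by 0.79, 0.88 and 0.67, while those with means of 6.31 and 6.10 differed by -0.36 and -0.35. The 4 probe sets of Tpm1 stayed between -0.25 and 0.17 and those of Tpm2 between 0.05 and 0.57. Tpm4, Actn4 and Flna have 1 probe set each that names a single gene, so that their values have no second reading here. Probe sets with several symbols or no name were not used. Which part of a transcript, or which of the alternatively spliced tropomyosin forms, a probe set reads was not analysed here. The RNA was amplified in 2 rounds before labelling, and the excess of the 3′ over the 5′ controls for Actb and Gapdh, which reflects how long the copied RNA was, was 1.44 to 1.81 in Tie2-positive and 1.85 to 2.02 in Tie2-negative arrays. Its part in the spread between probe sets was not tested.

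**Figure D3:**
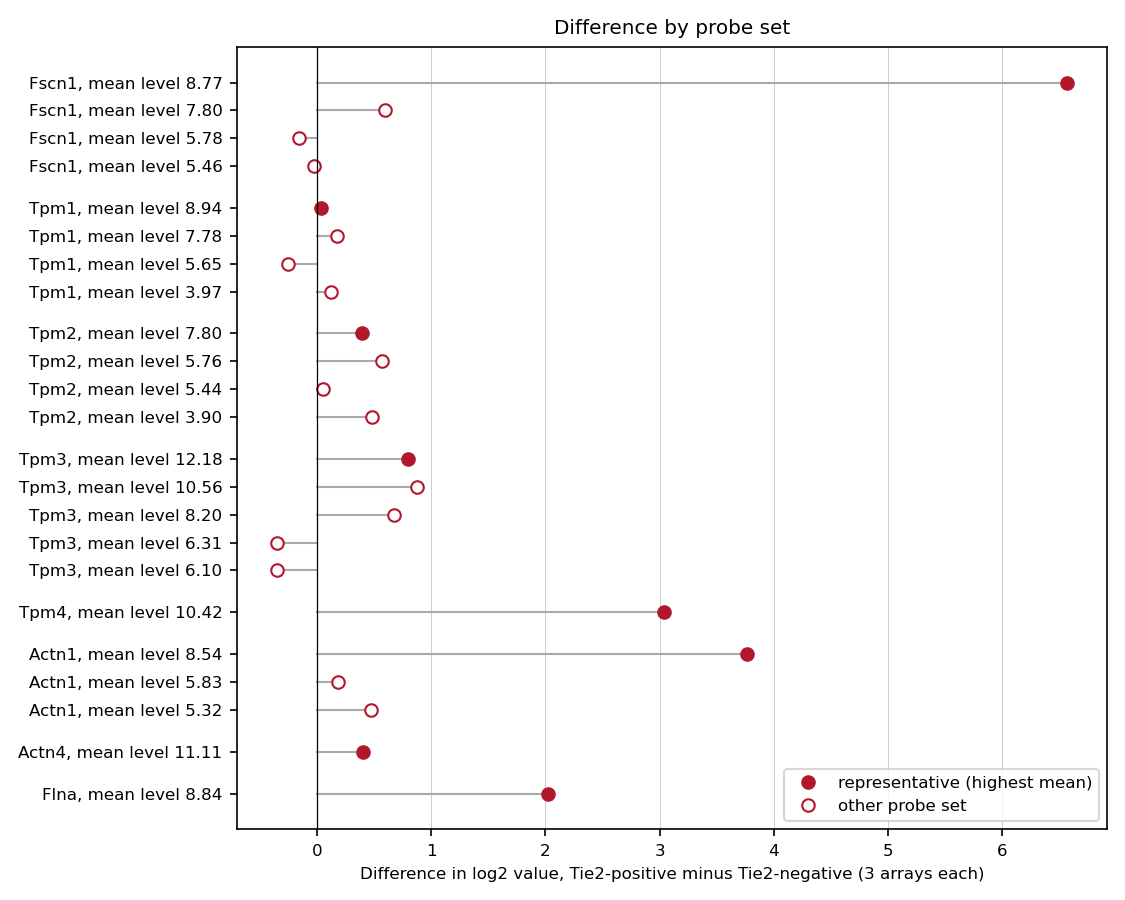
Difference in mean log2 value between 3 Tie2-positive and 3 Tie2-negative arrays (horizontal axis) for each of the 23 probe sets, grouped by gene and ordered by mean level, with filled circles for the probe set used and open circles for the others. The probe set used for Fscn1 differs by 6.58 and its other 3 by -0.16 to 0.59, whereas the 4 probe sets of Tpm1 all lie between -0.25 and 0.17.

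Among the Tie2-positive arrays the genes showed different patterns. Fscn1, Tpm4, Tpm1 and Actn4 had their highest value in replicate 1 and their lowest in replicate 3, as did the endothelial marker median (11.63, 10.39 and 9.19 in Tie2-positive replicates 1, 2 and 3). The spread between replicates 1 and 3 was wide for Fscn1 and Tpm4 and narrow for Actn4, as their values above show. Tpm2 and Tpm3 were lowest in replicate 1 and highest in replicate 3, as was the neutrophil marker median (5.98, 11.74 and 13.34). These orders are those of the probe set used per gene. The next brightest probe sets of Fscn1 (8.53, 7.97 and 7.81) and Tpm2 (5.12, 6.26 and 6.75) kept them. That of Tpm1 was instead lowest in replicate 1 (7.78, 7.95 and 7.88), and that of Tpm3 highest there (11.13, 10.85 and 11.01). Actn1 and Flna shared another pattern, lowest in replicate 2, where the summed level of 9 megakaryocyte and platelet markers was highest (10.29, 13.30 and 12.64 as log2 sums in Tie2-positive replicates 1, 2 and 3, against 9.57 to 9.66 in Tie2-negative arrays). This was not particular to that list. In replicate 2 the erythroid log2 sum (9.77, 12.42 and 11.14) and the B-lineage median (5.45, 6.03 and 5.81) were also the highest of the Tie2-positive arrays. Of the marker genes, 0 of 11 neutrophil and monocyte genes and 2 of 9 megakaryocyte and platelet genes (Pf4 and Nbeal2) rose. Of 13 endothelial genes 9 rose, the gate gene Tek among them, beside 4.86% of all genes. The part of these cell types in the levels of the 8 genes was not tested. With Tie2-positive replicates 2 and 3 left out, chosen after seeing the data because neutrophil markers were high there, the differences were 7.67 for Fscn1, 3.95 for Tpm4, 4.26 for Actn1, 2.28 for Flna, 0.80 for Actn4, 0.67 for Tpm3, 0.55 for Tpm1 and -0.08 for Tpm2. These values rest on a single Tie2-positive array, which was also the highest in endothelial markers.

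Muscle is another tissue rich in tropomyosin. The summed level of 13 skeletal muscle markers was 9.18 to 9.41 in Tie2-positive and 9.60 to 9.95 in Tie2-negative arrays, and of these genes 0 rose and 1 (Mylpf, a fast muscle myosin light chain) fell. The muscle alpha-actinins Actn2 (4.71 ± 0.10 against 5.41 ± 0.29, SD) and Actn3 (5.24 ± 0.41 against 5.69 ± 0.28, SD) were not called. The summed level of 11 pericyte and smooth muscle markers was 11.26 to 11.42 in Tie2-positive and 9.77 to 10.39 in Tie2-negative arrays, and 0 rose and 1 fell. In that list the gene that fell was the smooth muscle calponin Cnn1 (a difference of -0.56). Cspg4 (-0.46), the smooth muscle myosin Myh11 (-0.13) and Des (0.14) overlapped between the populations. Kcnj8 (2.43), Tagln (1.14) and Pdgfrb (0.39) were higher in every Tie2-positive array without being called, and Abcc9 (2.09), Rgs5 (1.33), Acta2 (1.06) and Notch3 (0.98) had positive differences with overlap. The summed level of 12 mesenchyme, bone and cartilage markers was 10.05 to 10.72 in Tie2-positive and 9.97 to 10.20 in Tie2-negative arrays, with 0 called, and that of 10 macrophage and osteoclast markers was 10.69 to 11.33 and 10.29 to 11.15, with Mrc1 rising and Acp5 falling.

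Other genes of the actin cytoskeleton were taken from 6 lists written by function, with no member of the 8 among them. The lists, like the 8 genes, were chosen with earlier results of these data known. Their counts and medians beside all genes are therefore a description, and nothing is read from the excess. Of 118 measured genes, 31 were higher and 3 lower in Tie2-positive arrays (limma, adjusted p between 0.0103 and 0.0483), beside 4.86% and 2.53% of all genes. Their median difference was 0.91, beside -0.11 over all genes. Without Tie2-positive replicate 2 the count was 12 higher and 0 lower, without Tie2-negative replicate 3 it was 10 higher and 1 lower, and without Tie2-negative replicate 1 or 2 it was 0, with 61 and 63 at an unadjusted p under 0.05. Without Tie2-positive replicates 2 and 3 it was 56 higher and 4 lower. The genes named below are the called genes with the largest changes per list, and their errors are limma's SE.

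Among 23 other crosslinkers and bundlers 6 rose and 0 fell, with a median difference of 1.12. Pls3, the plastin of solid tissues, rose by 4.32 ± 0.50 (SE), with 10.06 ± 0.91 (SD) in Tie2-positive and 5.74 ± 0.51 (SD) in Tie2-negative arrays. The stress fibre protein Synpo (3.99 ± 0.80, SE) and the non-erythroid spectrin chains Sptan1 (2.98 ± 0.47, SE) and Sptbn1 (2.89 ± 0.48, SE) also rose. Synpo was not called over the mean of its probe sets (limma adjusted p = 0.0505). Lcp1, the plastin of leukocytes, was named after its value was seen and was not called (1.42 ± 0.48, SE).

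Of 18 filament capping and calponin family genes 4 rose and 2 fell, with a median difference of 0.15. Cald1, caldesmon, which binds along tropomyosin-coated filaments, rose by 3.28 ± 0.65 (SE), the calponin Cnn2 by 2.92 ± 0.29 (SE) and the capping protein Capg by 2.61 ± 0.30 (SE). Add2, the beta-adducin that caps red-cell filaments, fell by 2.03 ± 0.28 (SE), with 6.64 ± 0.06 (SD) in Tie2-positive and 8.67 ± 0.50 (SD) in Tie2-negative arrays. The erythroid marker list was likewise lower in Tie2-positive arrays, and its part in the Add2 change was not tested. The smooth muscle calponin Cnn1, named after its value was seen, fell by 0.56 ± 0.13 (SE). Tropomodulins cap the pointed end of tropomyosin-coated filaments, and they were singled out after their values were seen: Tmod3, the widely made form, rose by 1.6 ± 0.31 (SE), while Tmod1, the red-cell and striated muscle form, had 6.89 and 8.56 as means in Tie2-positive and Tie2-negative arrays and was not called (limma adjusted p = 0.108).

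Of 15 actins and non-muscle myosin II genes 3 rose and 1 fell, with a median difference of 0.45. Mylk, the myosin light chain kinase, rose by 3.21 ± 0.48 (SE), the light chain Myl12b by 1.68 ± 0.17 (SE) and the cytoplasmic actin Actg1 by 1.26 ± 0.23 (SE). Actg1 was read by a probe set that can match several transcripts, and it had no value once such probe sets were left out. The heavy chain Myh10 fell by 0.97 ± 0.21 (SE), but was not called with the values as deposited (limma adjusted p = 0.0597) or with arrays centred on their medians (0.0710), nor over the mean of its probe sets (0.175). The other cytoplasmic actin, Actb, named after its value was seen, differed by 0.33 ± 0.10 (SE) and was not called.

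Of 25 genes of filopodia and actin assembly 9 rose and 0 fell, with a median difference of 1.0. Enah, a filopodial tip protein that speeds filament growth, rose by 3.76 ± 0.63 (SE), the formins Diaph2 and Fmnl2 by 3.37 ± 0.48 (SE) and 2.46 ± 0.52 (SE), and the cofilin Cfl2 by 2.42 ± 0.46 (SE). Enah had 9.92, 8.5 and 8.92 in Tie2-positive replicates 1, 2 and 3, against 4.62, 4.75 and 6.71 in Tie2-negative replicates 1, 2 and 3. Its highest Tie2-negative value lay in replicate 3, as for Fscn1. The same held for Pls3 and Cfl2, but not for Diaph2 or Fmnl2. Myo10, the motor that travels to filopodial tips, was singled out after its value was seen and was not called (2.23 ± 0.56, SE; limma adjusted p = 0.0619).

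Of 24 focal adhesion partners 5 rose and 0 fell, with a median difference of 1.18, and 18 had all Tie2-positive arrays above all Tie2-negative arrays (15.2% of all genes). Fermt2, the kindlin of solid tissues, rose by 5.71 ± 0.75 (SE), parvin alpha (Parva) by 3.35 ± 0.65 (SE), zyxin (Zyx), a partner of alpha-actinin, by 2.65 ± 0.29 (SE) and Pdlim7 by 2.58 ± 0.46 (SE). Parva was read by a probe set that can match several transcripts, and by another probe set it was not called (1.0, limma adjusted p = 0.125). Fermt3, the kindlin of blood cells, was named after its value was seen and was not called. It had 6.50 in Tie2-positive replicate 1 and 12.63 and 12.42 in Tie2-positive replicates 2 and 3, against 11.45 to 11.68 in Tie2-negative arrays, so that the sign of its mean difference (-1.08) rests on 1 array.

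Serum response factor with its MRTF cofactors, and YAP or TAZ with TEAD factors, are known to drive cytoskeletal genes. Of 13 genes of these systems 4 rose and 0 fell, with a median difference of 1.30. Wwtr1, which encodes TAZ, rose by 5.79 ± 0.59 (SE), the secreted target Ccn2 by 3.71 ± 0.78 (SE), Tead2 by 1.75 ± 0.37 (SE) and Tead1 by 1.30 ± 0.28 (SE). Tead1 was not called over the mean of its probe sets (limma adjusted p = 0.0943). Srf, the serum response factor, was named after its value was seen and was not called (0.66 ± 0.22, SE). Yap1 (2.15), Mrtfb (1.92) and Tead3 (-0.32), and the targets Ccn1 (1.82) and Ankrd1 (0.05), were also named afterwards and not called. Whether these factors were active was not tested.

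**Figure D4:**
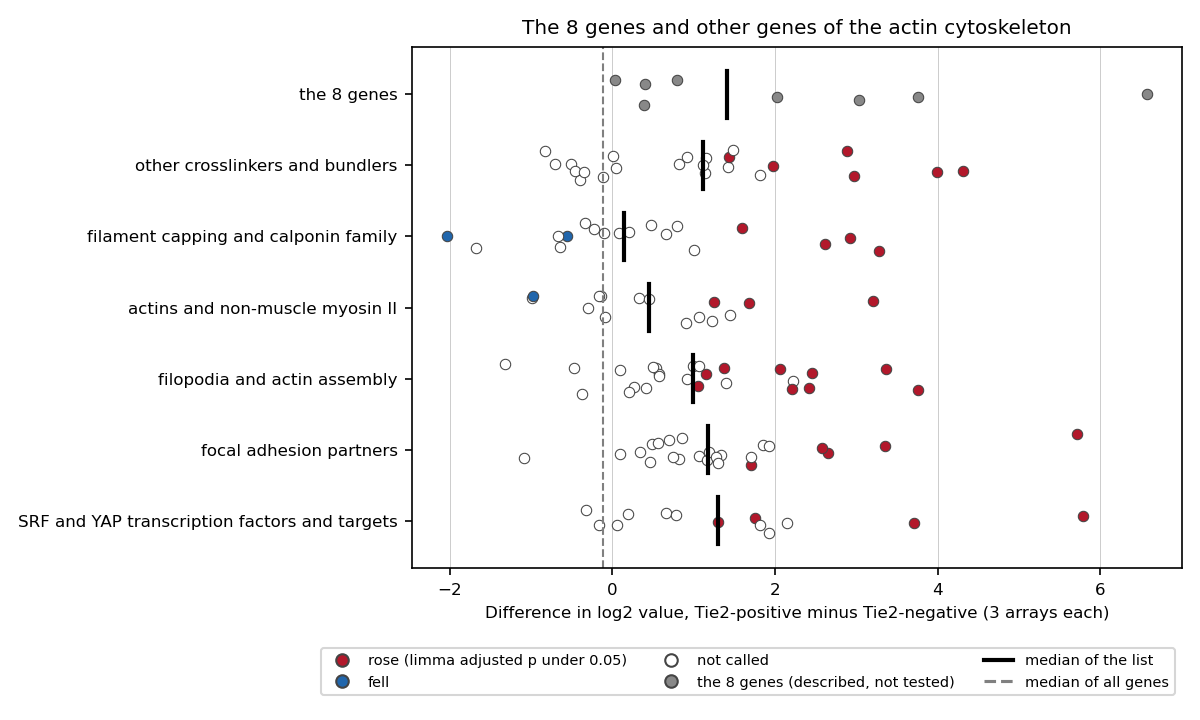
Difference in mean log2 value between 3 Tie2-positive and 3 Tie2-negative arrays (horizontal axis) for the 8 genes and for 118 other genes in 6 lists, with black bars at list medians, a dashed line at the median of all genes (-0.11), red for genes that rose, blue for genes that fell and white for genes not called. The list medians run from 0.15 for filament capping genes to 1.30 for the SRF and YAP list, and the 3 genes that fell are in the capping and actin lists.

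The genes whose profile over the 6 arrays was most like that of Fscn1, among genes with a mean above the median of all gene means, were Tagln2 (Pearson r = 0.997), Crtap (0.995), Cavin2 (0.995), Ifitm2 (0.995) and Tmem181a (0.994). They differed between the populations by 1.43, 2.30, 6.31, 2.59 and 0.83, so that a like profile did not mean a like size. Actn1 and Flna were each other's closest gene (r = 0.999). Closest to Tpm4 was the spectrin gene Sptan1 (r = 0.997), to Tpm3 Eml4 (0.999), to Tpm1 Aplp2 (0.997), to Tpm2 Etnk1 (0.987) and to Actn4 Phldb1 (0.995). These correlations describe 6 arrays in 2 populations, which share the same sorts and normalization, and they carry no test.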

How the data were processed

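Gene expression was measured on Affymetrix mouse arrays, 1 per sorted sample, with RNA amplified in a double round, per the labels' protocols. The values the authors deposited run between 2.56 and 14.78, a range taken here to be log2, and how probe sets were summarised and normalized is not stated in the labels. No 2 arrays held identical values (0 pairs).

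Of 45101 probe sets, 64 controls were normalized with the rest and then dropped. In the platform annotation 34945 probe sets had 1 symbol, 932 several and 9160 were unnamed here. RefSeq (GRCm38.p6) held 34741 of the gene IDs. Array 75th percentiles differed by 0.27, above a limit of 0.1, so values were quantile normalized; these percentiles were 7.45 to 7.53 in Tie2-positive and 7.26 to 7.33 in Tie2-negative arrays, so a difference that went with the populations was removed too. Limma 3.58.1 (R 4.3.3; lmFit, eBayes with a mean trend, two-sided, no covariates, Benjamini-Hochberg over 18193 genes, threshold 0.05) was fitted on the probe set of highest mean per gene. Precision is limited by the number of arrays.

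The 8 genes and all lists were chosen with earlier results of these data known. Of 123 list genes, 118 were measured. Per list, up to 4 called genes of largest change were named, provided that their higher population mean passed 6.55 (the median over all genes and arrays). The fit was tested on simulated data with planted log2 changes of 1, 2 and 3. It recovered 32.0%, 76.5% and 86.3% of them, and 5.50% of its calls were false. A gene that was not called may therefore still differ. Alternatives were other scalings, a filter at the 40th percentile, other probe set rules, other variance models, array weights, the replicate number as a block and leaving out arrays. All 8 genes matched RefSeq start regions (9 in all).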

Additional observations from a re-analysis of the deposited data

How the results depend on the processing

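Limma called 1345 genes in all and 34 of the related actin genes. The replicate numbers in the titles are shared by the populations. The correlations of same-numbered deviations were 0.14, 0.005 and 0.19, against -0.16 to 0.06 for deviations with different numbers. The neutrophil and monocyte marker median also rose with the replicate number in both populations. The main fit did not pair the samples, and these values do not settle whether the numbers do. A replicate block left 0 genes and 0 related genes called by limma (5080 and 80 at an unadjusted p under 0.05). With array weights the counts were 4639 and 64, and 3637 and 60 on dropping both Tie2-positive replicate 2 and replicate 3, which was chosen after seeing the data. With all probe sets tested 2246 probe sets were called. Leaving out single arrays gave 0 to 2148 genes and 0 to 48 related genes. The counts were 0 without Tie2-negative replicate 1 or 2, 504 and 12 without Tie2-positive replicate 2, and 378 and 11 without Tie2-negative replicate 3. The causes were not tested. The other settings kept both counts within 1.5 times. Centring arrays on their medians gave 1137 genes higher and 387 lower, against 884 and 461. All 24 named related genes kept their direction in every setting that gave them a value. Of the 24, leaving out Tie2-positive replicate 2 kept 9 called, leaving out Tie2-positive replicate 3 kept 21, and leaving out Tie2-negative replicate 3 kept 9. Over the mean of all probe sets Tpm3 differed by 0.33. No detection calls were used, so large differences rest on low values of unknown distance from background.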
